A study of Mus musculus with 7 samples.

Results

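miR-155 and miR-147 are microRNAs (miRNAs), short RNAs that pair with messenger RNAs and lower their output, and both are known to be switched on in macrophages by inflammatory stimuli. They were taken by assay name from a quantitative PCR panel, and each matched 1 assay, so the 2 members stand beside 515 other miRNAs in a panel of 517. They were assayed in total RNA of 4 aortas and of 3 macrophage cultures grown from bone marrow. The aortas came from untreated female mice of 6 to 8 weeks that the labels give as apoE-/-, a strain lacking apolipoprotein E, whereas the series title calls the tissue normal. The macrophages came from female C57BL/6 mice of 6 to 8 weeks, were cultured for 7 days in medium conditioned by L929 cells, and were then driven to the inflammatory M1 state with lipopolysaccharide (100 ng/ml, 14 hours) and interferon-γ (10 ng/ml, 6 hours). Strain, culture and treatment all differ between the groups and cannot be told apart from sample type, and no unstimulated macrophages were among the samples analysed here.

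miR-155 is cut from a long noncoding transcript, Mir155hg (also called Bic), whose transcription rises when Toll-like receptors activate NF-κB and AP-1. It then lowers brakes on inflammatory signalling such as the phosphatase SHIP1 and the inhibitor SOCS1. miR-147 is induced by Toll-like receptor ligands in mouse macrophages as well, but is described there as a feedback inhibitor that dampens cytokine production. Both therefore belong to the same response and are credited with opposite effects on it.

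The mature strand and hairpins are shown because they show that the members come from different hairpins on different chromosomes. Sequences are from RefSeq (build GRCm38.p6, plus strand), 5′ to 3′. In the mature strand the capitals mark the seed (bases 2 to 8), which sets target choice, and in the hairpins they mark the mature strands that RefSeq annotates.
mmu-miR-155-5p, chr16:84714143-84714165: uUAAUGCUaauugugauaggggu
Mir155 hairpin, chr16:84714140-84714204: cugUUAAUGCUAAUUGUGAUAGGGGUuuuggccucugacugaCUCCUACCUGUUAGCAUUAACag
Mir147 hairpin, chr2:122640803-122640881: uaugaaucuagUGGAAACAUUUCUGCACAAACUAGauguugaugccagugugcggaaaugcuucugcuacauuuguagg

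The panel gives older names without a strand. By common usage miR-155 was the name of the strand now called miR-155-5p, and miR-147 that of miR-147-3p, so the strand assayed is inferred from the name. The capitals in the Mir147 hairpin mark miR-147-5p. No other mature mouse miRNA in the RefSeq table had bases 2 to 7 of miR-155-5p. Panel assays without an entry in that table were not compared. The Mir155 hairpin lies within the span of Mir155hg (chr16:84713023-84715245). The Mir147 hairpin lies on chromosome 2 within the span of the protein-coding gene AA467197, also called Nmes1 (chr2:122637887-122641076). Whether either hairpin is exonic was not analysed here.

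The promoters of the host genes are shown because both genes are known to be induced by inflammatory stimuli. Windows of 300 bases (250 before to 50 after the annotated start) were searched on both strands for GGGNNNNNCC (NF-κB), TGANTCA (AP-1) and GAAANNGAAA (interferon-stimulated response element), and matches are in capitals.
Mir155hg, chr16:84712773-84713072: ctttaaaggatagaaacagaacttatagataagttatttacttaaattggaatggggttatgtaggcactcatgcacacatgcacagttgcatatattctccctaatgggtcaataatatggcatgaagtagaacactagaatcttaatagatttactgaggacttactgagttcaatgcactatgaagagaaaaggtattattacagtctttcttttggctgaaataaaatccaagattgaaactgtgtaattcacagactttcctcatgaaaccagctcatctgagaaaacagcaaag
AA467197, chr2:122637637-122637936: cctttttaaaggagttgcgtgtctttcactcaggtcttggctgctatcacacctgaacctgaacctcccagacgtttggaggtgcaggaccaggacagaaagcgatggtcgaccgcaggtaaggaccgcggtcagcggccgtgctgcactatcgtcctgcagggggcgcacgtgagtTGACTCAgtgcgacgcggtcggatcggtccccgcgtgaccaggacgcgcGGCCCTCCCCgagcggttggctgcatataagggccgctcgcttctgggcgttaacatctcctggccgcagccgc

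The AA467197 window held 1 AP-1 match, a palindrome read on both strands, and 1 NF-κB match on the minus strand, which do not overlap. The Mir155hg window held none of the 3 motifs, which says only that these letters are not in this window. Of 32851 promoter windows of the same length, 7.81% held the AP-1 motif, 50.8% the NF-κB motif and 3.44% the interferon motif, so the loose NF-κB match is common. A match is a description of the letters and not evidence of binding, which was not measured.

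Values are cycle thresholds (Ct), that is, the number of PCR cycles a well needed to cross its threshold, so an earlier Ct stands for more target. Detection meant crossing by Ct 35, and wells that never crossed are listed at 40. Of the 517 miRNAs, 416 to 454 were detected per aorta and 326 to 366 per macrophage sample. A common set of 296 miRNAs was detected throughout, and its mean Ct was 22.6 to 24.7 in aortas and 25.4 to 27.8 in macrophages. Over this set the macrophages thus yielded the weaker signal, macrophage replicate 3 the weakest. The panel's reference small RNAs did not all show this. snoRNA135 crossed at Ct 20.2 to 23.2 in aortas and 20.2 to 22.7 in macrophages, and Y1 at 21.0 to 26.2 and 22.4 to 23.9. In contrast, snoRNA429 crossed at 15.8 to 17.4 in aortas and 18.4 to 20.8 in macrophages. Marker miRNAs followed the labels. The smooth muscle miRNAs miR-143, miR-145 and miR-133a crossed at Ct 11.1 to 16.7 in aortas and at 27.8 or later in macrophages, and the endothelial strands miR-126-3p and miR-126-5p at 14.4 to 18.4 and at 27.8 to 31.2. The leukocyte miRNA miR-223 and both strands of miR-142 were detected in all 7 samples, at Ct 18.7 to 28.4 in aortas and 16.0 to 27.0 in macrophages.

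miR-155 was detected in every sample. It crossed at Ct 25.2, 25.5, 23.4 and 24.5 in aorta replicates 1 to 4. In macrophage replicates 1 to 3 it crossed at 17.9, 19.5 and 22.9. Every macrophage sample was thus earlier than every aorta before any scaling, although by only 0.459 cycles at the nearest pair, macrophage replicate 3 and aorta replicate 3.

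To allow for the difference in signal over the common miRNAs, a scaled level was computed. It was the mean Ct of the sample over the 296 common miRNAs minus the Ct of the miRNA. Thus 1 unit is 1 cycle and a higher level stands for more target. The scaled level of miR-155 was -1.70, -0.75, -0.76 and -1.10 in aorta replicates 1 to 4. It was 7.45, 5.98 and 4.84 in macrophage replicates 1 to 3. The aortas lay within 1 cycle of each other, and the lowest macrophage sample stood 5.59 cycles above the highest aorta. The group values were -1.08 ± 0.45 (SD, n = 4) and 6.09 ± 1.31 (SD, n = 3). In the authors' deposited values, which are Ct relative to MammU6 and snoRNA202, the aortas were closer still, at 9.68 ± 0.17 (SD, n = 4) against 3.51 ± 1.15 (SD, n = 3) in macrophages, where a lower value stands for more target.

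miR-147 was far more uneven in the aortas. It crossed at Ct 30.0, 28.4 and 33.0 in aorta replicates 1 to 3 and never crossed in aorta replicate 4. In macrophage replicates 1 to 3 it crossed at 27.1, 25.9 and 26.8. The groups did not overlap before scaling either, with 1.31 cycles between macrophage replicate 1 and aorta replicate 2. The macrophage samples agreed within 1.5 cycles in raw Ct, although their mean Ct over the common miRNAs was spread over more than 2.

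**Figure D1:**
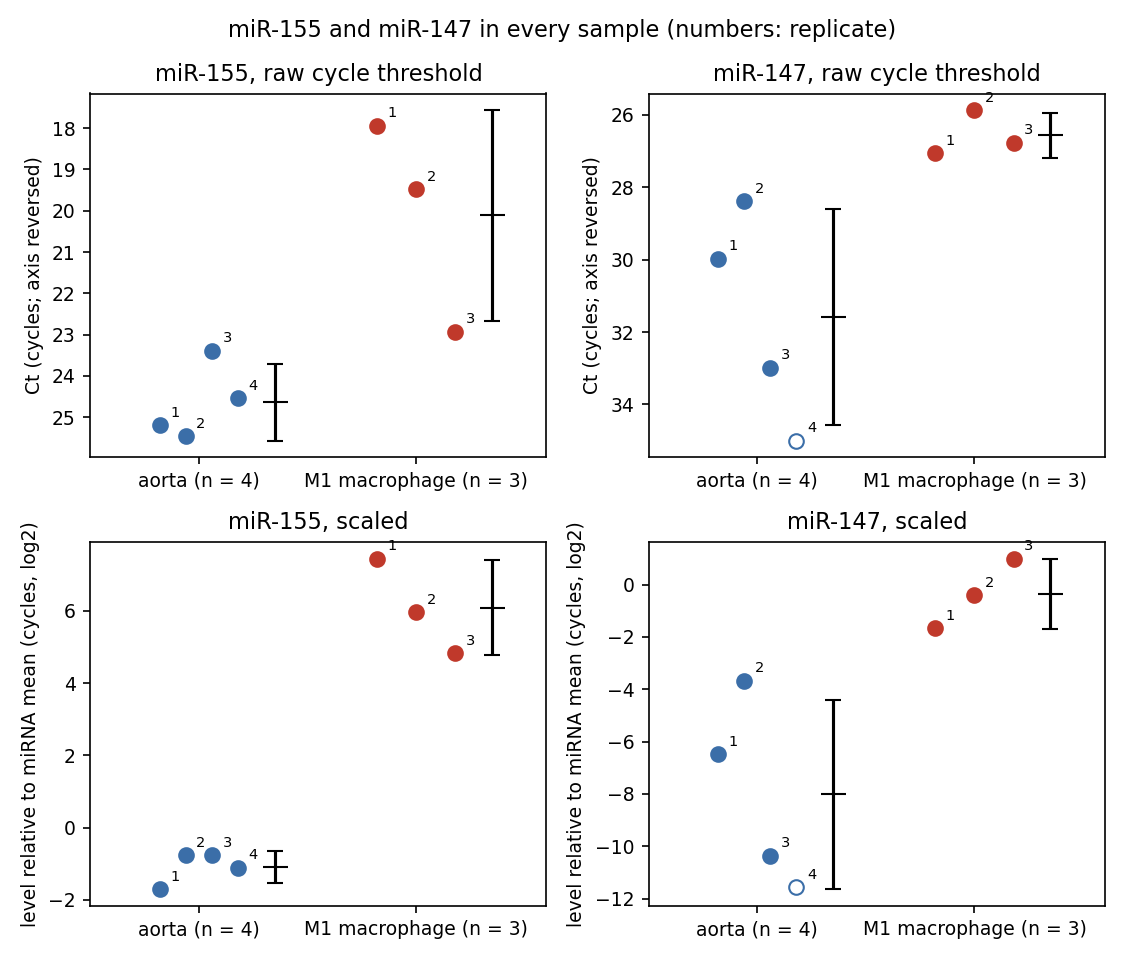
Raw Ct (upper panels, axis reversed so that more target is higher, wells past Ct 35 drawn at 35) and level relative to the miRNA mean (lower panels, log2 cycles) of miR-155 (left) and miR-147 (right) in every sample, with the group mean and SD in black and the replicate number beside each point. The open point is aorta replicate 4, where miR-147 was not detected, and the groups do not overlap in any panel.

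With undetected wells set to Ct 35, the scaled level of miR-147 was -6.48, -3.67, -10.36 and -11.57 in aorta replicates 1 to 4. It was -1.67, -0.42 and 0.99 in macrophage replicates 1 to 3. The lowest macrophage sample stood 2.00 cycles above the highest aorta, and the aortas were spread over more than 7 cycles. The group values were -8.02 ± 3.62 (SD, n = 4) and -0.37 ± 1.33 (SD, n = 3). The aorta with the most miR-147, replicate 2, was the one with the latest mean Ct of its group, at 24.7. The panel's plant miRNA ath-miR159a, which has no mouse counterpart, crossed at Ct 27.9, 28.4 and 21.1 in aorta replicates 1 to 3, at 31.4 in macrophage replicate 3 and in no other sample. In aortas 1 and 3 the plant assay thus crossed earlier than miR-147, and in aorta 3 also earlier than miR-155 (Ct 23.4). The part of nonspecific signal in the late miR-147 wells and in the miR-155 wells was not tested.

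The members did not keep the same order of scaled levels among the macrophage samples. Scaled miR-155 was highest in replicate 1 and lowest in replicate 3, and miR-147 was lowest in replicate 1 and highest in replicate 3. In raw Ct miR-155 kept that order, while miR-147 was earliest in replicate 2 and latest in replicate 1. The level of miR-147 relative to miR-155 within a sample, which needs no scaling, was -9.13, -6.39 and -3.85 cycles in macrophage replicates 1 to 3. In aorta replicates 1 to 4 it was -4.78, -2.92, -9.60 and -10.47, the last with miR-147 at the limit. These gaps overlapped, with a difference between the group means of 0.49 cycles (exact permutation test, 2-sided p = 0.914, n = 4 and 3). The direction of this difference turned without aorta replicate 3 (-0.40), without aorta replicate 4 (-0.69) and without macrophage replicate 3 (-0.82), so the data do not show which member differed more between the groups.

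Both members were higher in macrophages over the whole panel test. The groups were compared for the 429 miRNAs that at least 3 aortas or 3 macrophage samples detected, with limma and Benjamini-Hochberg adjustment over all of them at a threshold of 0.05. miR-155 was higher by 7.17 ± 0.66 (SE) on the log2 scale, with a 95% interval of 5.63 to 8.71 and an adjusted p of 0.000112, which is 144-fold if each cycle doubles the product. miR-147 was higher by 7.65 ± 1.89 (SE), with an interval of 3.22 to 12.09 and an adjusted p of 0.0107. Its fold of 201 depends on the limit, since 1 aorta enters at Ct 35. Of the tested miRNAs 24.7% were called higher in macrophages, 30.8% lower and 55.5% in either direction, so passing the threshold alone did not set the members apart. In bulk samples, fewer cells of a type and less RNA per cell cannot be told apart.

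Their size did place them near the top. Ordered from the largest higher difference down, miR-147 was the second and miR-155 the third of 429, an order that subtracting any 1 reference per sample cannot change. The first, miR-124, had a macrophage replicate 1 well at Ct 9.10 against 20.1 and 22.5 in the others, and without that sample its difference was 4.43 (adjusted p = 0.0783). Over the 26 settings run, miR-155 ranked between 2 and 7, and over the 25 that tested miR-147 it ranked between 1 and 9. A raw Ct earlier in every macrophage sample than in every aorta was rarer than a call, at 13 of 429 miRNAs or 3.03%, and both members were among the 13. A scaled level higher in every macrophage sample was found for 27.3%.

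**Figure D2:**
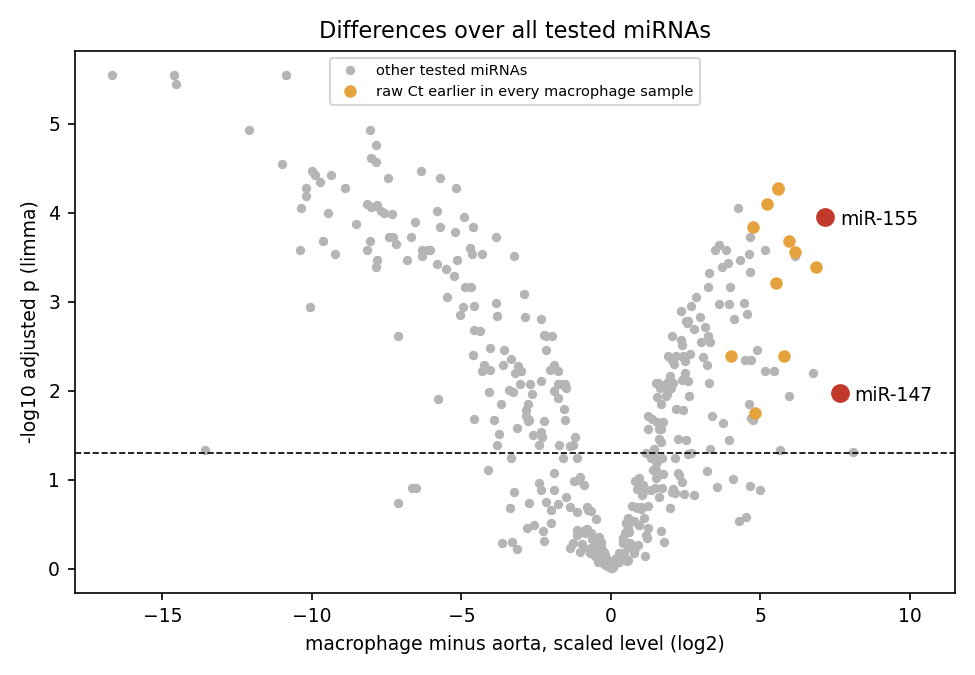
Difference between groups (macrophage minus aorta, scaled level, log2) against -log10 of the limma adjusted p for the 429 tested miRNAs, with the threshold of 0.05 dashed. Red points are miR-155 and miR-147, orange points are the 11 other miRNAs whose raw Ct was earlier in every macrophage sample, and both members lie at the right edge, miR-155 with the lower adjusted p.

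The size of the difference depended on what the levels were scaled to, and its direction did not. The median difference over all tested miRNAs was -0.21 with the miRNA mean, -2.45 with snoRNA135 and snoRNA202, -0.86 with MammU6, -1.40 with the deposited values, -2.85 without scaling and 0.41 with quantile normalization. The counts of higher and lower calls moved with it, from 106 and 132 to 32 and 231, 52 and 124, 53 and 155, 10 and 207, and 147 and 118. Relative to that median, miR-155 stood at 7.38 and miR-147 at 7.86 with the miRNA mean, either reference setting or no scaling. These are equal by construction, since subtracting 1 value per sample shifts every miRNA and the median alike. The values were 7.23 and 7.63 with quantile normalization, and 7.58 and 9.31 with the deposited values.

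In absolute terms miR-155 was higher by 4.93 with the snoRNA pair (adjusted p = 0.000421), 6.51 with MammU6, 6.18 with the deposited values (adjusted p = 0.000155), 7.64 with quantile normalization and 4.53 without scaling (adjusted p = 0.0106). It passed in each, while 7.46% of tested miRNAs were called higher with the snoRNA pair, 12.4% with the deposited values and 2.33% without scaling. With MammU6 52 of 429 were called higher, and with quantile normalization 147 of 429. Both members were among the 10 miRNAs called higher without scaling. Against each of 6 small RNAs taken singly, miR-155 was higher by 4.02 (snoRNA135) to 7.22 (snoRNA429) and passed with all 6. Of the 429 tested miRNAs, from 11 (Y1) to 107 (snoRNA429) were called higher with these.

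miR-147 was higher by 5.42 with the snoRNA pair (adjusted p = 0.0438), 7.00 with MammU6, 8.04 with quantile normalization and 5.01 without scaling (adjusted p = 0.0167). With the deposited values, which keep the uncrossed aorta well at Ct 40, it was higher by 7.91 and missed the threshold (adjusted p = 0.0646). Against the 6 small RNAs singly it was higher by 4.51 to 7.70 and passed with 5, missing with snoRNA135 (adjusted p = 0.079). For each scaling, the numbers called higher over all tested miRNAs are those given for miR-155. A detection limit of Ct 32 gave 6.37 and a limit of Ct 40 gave 9.06, against 7.65 at Ct 35.

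Single samples moved the values, more for miR-147. Without macrophage replicate 1 miR-155 was higher by 6.49, and without macrophage replicate 3 by 7.89. Without aorta replicates 2, 3 and 4 and macrophage replicate 1, miR-147 was higher by 9.08, 6.88, 6.46 and 8.31. With 1 sample left out, 207 to 250 miRNAs passed in either direction, of 404 to 433 tested. Both members passed the threshold whichever sample was left out, with adjusted p of at most 0.0397 for miR-147, without macrophage replicate 3. That sample had the fewest detected miRNAs, and without it miR-147 was higher by 7.07.

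**Figure D3:**
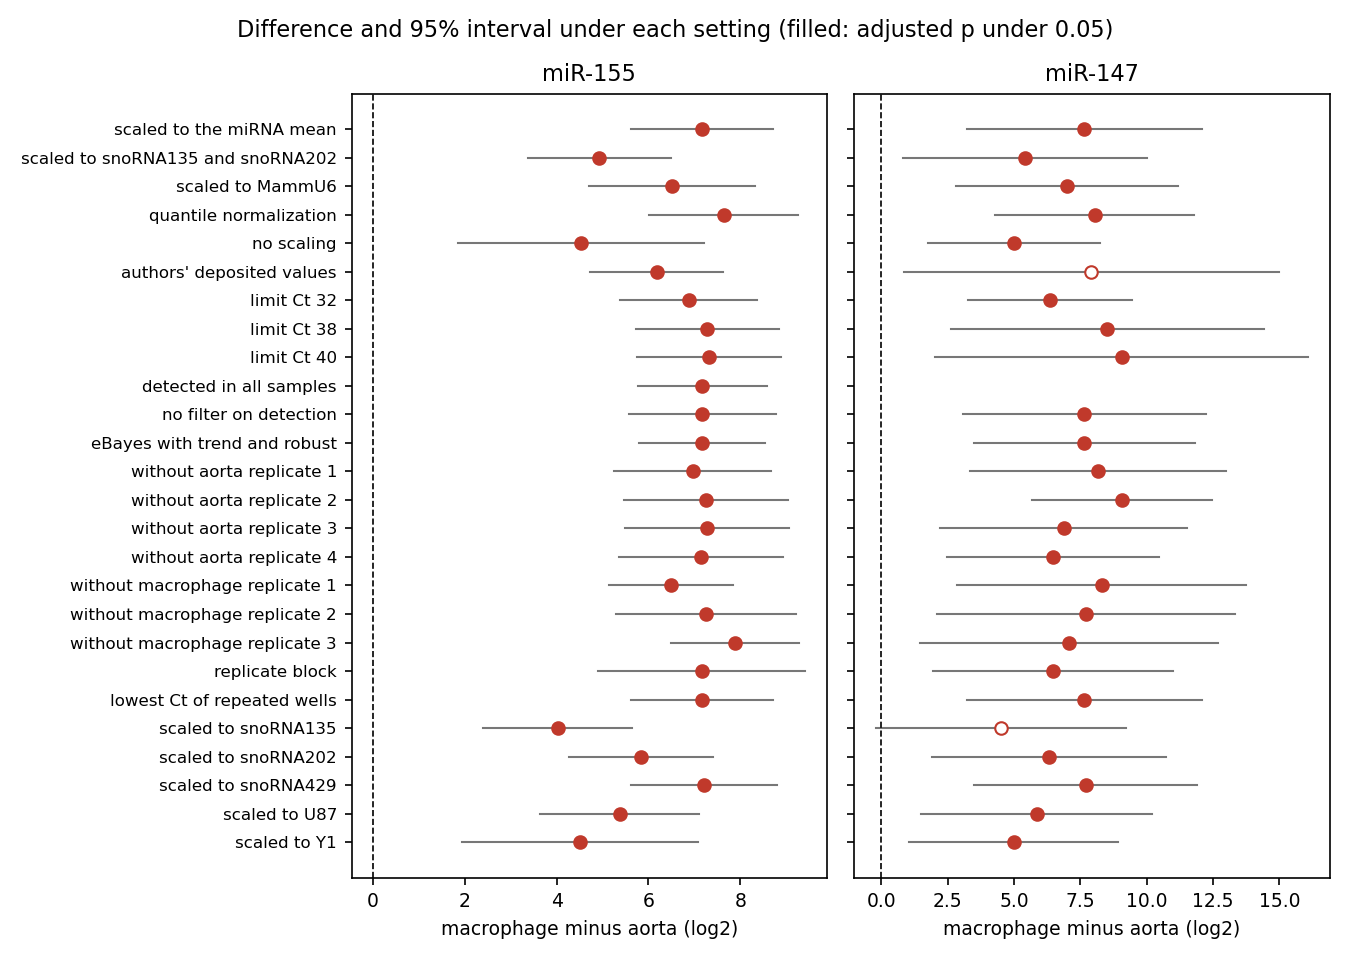
Difference between groups (macrophage minus aorta, log2) with its 95% interval from limma for miR-155 (left) and miR-147 (right) under each scaling, limit, filter and left-out sample, on different horizontal ranges. Filled points have an adjusted p under 0.05, and the open points are miR-147 with the deposited values and with snoRNA135, while every point lies above 0.

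Leukocyte miRNAs shared the direction of both members between the groups. They were miR-223, a miRNA of myeloid cells, and miR-142-3p and miR-142-5p, the strands of a hairpin active across blood cells. All 3 were higher in macrophages, by 4.62, 4.32 and 3.98 on the log2 scale, beside 24.7% of all tested miRNAs called higher. Among macrophage samples the scaled levels of these 3 were lowest in replicate 1 and highest in replicate 2, an order that neither member had. Their summed level was 4.29 to 5.68 in aortas and 8.97 to 9.97 in macrophages, so these 3 were lower in aortas but detected in each. miRNAs of other blood cells went the other way: miR-150, abundant in lymphocytes, crossed at Ct 16.2 to 20.4 in aortas and 26.9 to 28.9 in macrophages, and the red blood cell miRNA miR-451 at 19.1 to 21.1 and 32.2 to 34.0. miR-486, also of red blood cells, crossed at 23.4 to 30.1 in aortas and in no macrophage sample. None of the leukocyte 3 had non-overlapping raw Ct. Without scaling miR-223 missed the threshold (adjusted p = 0.101).

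The members were therefore also set against these miRNAs within each sample, which removes the scaling. miR-155 relative to the mean of the 3 was at -3.17, -2.55, -2.04 and -2.29 cycles in aorta replicates 1 to 4. It was at 2.37, -0.38 and -0.95 in macrophage replicates 1 to 3. All macrophage samples lay above all aortas, by 2.86 cycles on average, or 7.27-fold on the doubling assumption. Against miR-223 alone the difference was 2.55 and against miR-142-3p alone 2.85, again with no overlap. How many other miRNAs of the panel also clear these leukocyte miRNAs was not counted, so the lack of overlap is not shown to be particular to miR-155. The exact permutation test gave p = 0.0571 for each (2-sided, n = 4 and 3), the smallest that 35 splits allow, and an adjusted p of 0.133 over the 7 gaps compared. Macrophage replicate 1 contributed much of the size: without it the differences from the leukocyte mean, miR-223 and miR-142-3p were 1.85, 1.70 and 1.76, and without macrophage replicate 3 the first was 3.51.

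miR-147 relative to the leukocyte mean was at -7.95, -5.47, -11.64 and -12.75 cycles in aorta replicates 1 to 4. It was at -6.75, -6.77 and -4.79 in macrophage replicates 1 to 3. Aorta replicate 2 lay among the macrophage samples, so the groups overlapped, with a mean difference of 3.35 cycles (exact permutation test, 2-sided p = 0.229, adjusted p = 0.267, n = 4 and 3). The differences were 3.03 against miR-223 and 3.33 against miR-142-3p, with overlap in both. Without aorta replicate 2 the difference from the leukocyte mean was 4.67, and without aorta replicate 4 it was 2.25. How far leukocyte content accounts for the differences of either member was not tested.

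**Figure D4:**
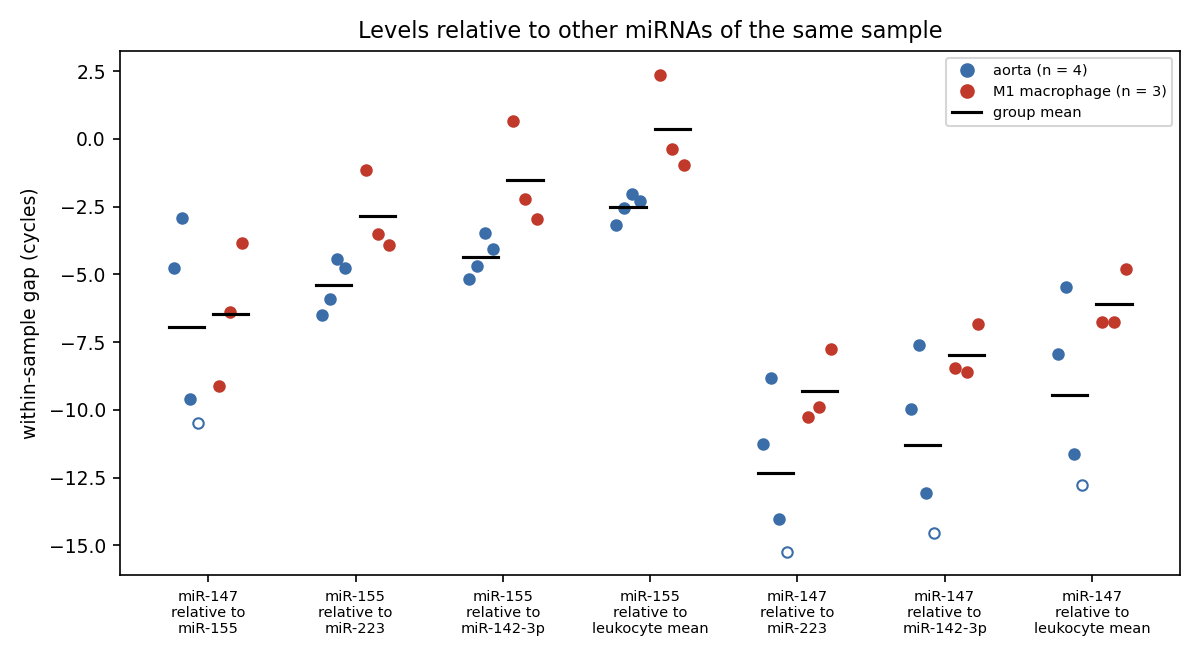
Level of one miRNA relative to another in the same sample (cycles, independent of scaling) for the 7 gaps compared, with each aorta in blue, each macrophage sample in red and the group means as lines. Open points have miR-147 at the Ct 35 limit. The groups do not overlap for miR-155 against the leukocyte miRNAs, and they overlap for miR-147 and for miR-147 relative to miR-155.

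Other miRNAs known to rise after lipopolysaccharide went both ways. Of 14 listed besides the members, 13 were on the panel and tested, and 7 were higher in macrophages, 4 lower and 2 did not pass. Over all tested miRNAs 24.7% were higher and 30.8% lower, so the lower count was near the general share. The median of the list was 1.56 against -0.21 over all. The counts of higher and lower were 4 and 5 with the snoRNA pair, beside 32 and 231 of all 429 tested miRNAs. They were 4 and 4 with MammU6 (52 and 124 of 429) and with the deposited values (53 and 155 of 429). Quantile normalization gave 7 and 3 (147 and 118 of 429), and no scaling gave 1 and 5 (10 and 207 of 429). The higher ones were led by miR-221, higher by 5.58, by miR-146a, which restrains signalling from Toll-like receptors, higher by 4.56, and by miR-222, the neighbour of miR-221, higher by 4.46. Unscaled, neither miR-146a (adjusted p = 0.235) nor miR-222 (adjusted p = 0.165) passed, and without macrophage replicate 3 miR-146a was higher by 5.54. Only miR-221 of the 13 crossed earlier in every macrophage sample than in every aorta before scaling, against 3.03% of all tested miRNAs, and 5 crossed later in every one, against 51.7%.

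miR-187, described in human monocytes as induced downstream of lipopolysaccharide, was detected in all 4 aortas (Ct 22.4 to 24.5) and in none of the macrophage cultures. With undetected wells set to the limit it was lower by 8.91 on the log2 scale at Ct 35 and by 6.20 at Ct 32, and without macrophage replicate 3 by 9.59. The other lower ones were miR-132 at -2.33, miR-9 at -3.02 and its star strand miR-9* at -2.84, all also known from neurons. Leaving out macrophage replicate 1 ended the call of miR-9* (adjusted p = 0.0639), as did leaving out replicate 2 (adjusted p = 0.0678). Of the smaller higher differences, miR-146b at 1.56 and miR-210, better known from hypoxia, at 1.66 turned to -0.68 and -0.58 with the snoRNA pair, and both missed the threshold when any of several single samples was left out (miR-210 at 1.05, adjusted p = 0.0941, and miR-146b at 1.40, adjusted p = 0.0746, without macrophage replicate 1). Those that did not pass were miR-99b at 0.76 and miR-125a-5p at -0.40, the latter lower by 2.64 with the snoRNA pair (adjusted p = 0.0148).

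The miRNAs most like the members in pattern were found by the root mean square distance between scaled levels over the 7 samples, each centred on its own mean, among miRNAs detected in all samples. Nearest to miR-155 were miR-7a at 1.14, miR-130b* at 1.23, miR-715 at 1.26, miR-221 at 1.29 and miR-130b at 1.34 cycles, of 295 candidates. Nearest to miR-147 were miR-685 at 2.14, miR-423-5p at 2.37, miR-223 at 2.51, miR-221 at 2.54 and miR-678 at 2.60 cycles, of 296. Among these neighbours, miR-685 and miR-715 had no entry in the RefSeq table of mouse miRNAs. No candidate came as close to miR-147 as 5 did to miR-155, and miR-221 was on both lists. miR-147 was itself undetected in aorta replicate 4, and miRNAs with an undetected well were not among the candidates. The distances describe these samples and carry no test.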

How the data were processed

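The authors' deposited raw table holds Ct values, a score in cycles with uncrossed wells at 40, for 524 assays (517 mouse miRNAs and 7 controls). The second table the authors deposited is on a log2 scale, and for the miRNAs it equalled Ct minus the sample's mean over MammU6 and snoRNA202 to within 5e-05 cycles, as read from the values. Per the labels' protocols, total RNA was extracted with a kit made for miRNAs. No instrument or preamplification step is stated there. Each member had 1 well per sample. Repeated control wells differed by a median of 0.46 cycles (35 pairs, largest 3.22). The labels call the samples biological replicates, without naming animals. Levels were fitted with limma 3.58.1 in R 4.3.3 (group as the only term) and gaps tested in scipy 1.17.1. The limma fit was tested on simulated data, and the permutation test only on a small made-up example with a known p. The number of samples limits the precision. Members, lists and the naming rule (members, the 4 largest differences of the lipopolysaccharide list, the 5 nearest patterns) were chosen with earlier results of these data known. Any miRNA named beyond the rule was picked after seeing its values. The single-reference scalings were added after seeing the data.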

Additional observations from a re-analysis of the deposited data

How the results depend on the processing

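Both members kept their direction under all alternatives. Those that ended the call for miR-147 were the authors' deposited values (7.91, adjusted p = 0.0646, limma), snoRNA135 alone (4.51, adjusted p = 0.079) and the exact permutation test of the scaled levels (7.65), where p cannot go below 0.0571; for miR-155 only that permutation test (7.17) did. Over all limma settings other than the reported one the adjusted p ranged from 2.1e-05 to 0.0106 for miR-155 and from 0.00221 to 0.079 for miR-147. Leaving out each sample gave 6.49 to 7.89 for miR-155, 6.46 to 9.08 for miR-147, 207 to 250 for the count of miRNAs past the threshold (238 with all samples) and 8 to 11 of the lipopolysaccharide list (11 with all), which fell to 6 without scaling. The gap of miR-147 relative to miR-155 turned to -0.51 at a limit of Ct 32 and ranged from -0.82 to 1.83 with samples left out. Same-numbered samples correlated in their deviations at r = 0.11, 0.0077 and -0.074, within the range of differently numbered samples (-0.22 to 0.15). So few pairs cannot tell whether the numbers pair the samples. With the replicate block miR-155 was at 7.16 and miR-147 at 6.47, and 212 miRNAs passed. miR-147 was not tested where detection in all samples was required. The members' own wells had no repeats, so taking the lowest of repeated wells changed nothing. The undetected well of aorta replicate 4 makes miR-147 depend on the limit, at 6.37 with Ct 32 and 9.06 with Ct 40.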

Other observations

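Of 5 miRNAs linked to alternative (M2) activation, 1 was higher in macrophages, 2 were lower and 2 did not pass, beside 24.7% higher and 30.8% lower over all tested miRNAs. miR-378 was lower by 3.81 ± 0.60 (SE) and miR-193b, also abundant in fat cells, by 10.18 ± 0.77 (SE) on the log2 scale (limma). Each had a raw Ct later in every macrophage sample than in every aorta, as did 51.7% of all tested miRNAs. miR-511, from an intron of the mannose receptor gene, crossed at Ct 25.9 to 28.0 in aortas and at 27.8 and 27.4 in macrophage replicates 1 and 2, and never crossed in replicate 3. Without that sample it was higher in macrophages by 1.48 (adjusted p = 0.0247), against -0.30 with it. let-7c was at 0.23 and turned to -2.01 with the snoRNA pair. The higher one, miR-124, rests on the well at Ct 9.10 in macrophage replicate 1.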
